A study of Homo sapiens with 6 samples.

Results

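CXCR4, CCR2, CD163, CD209 and IGF1 are the 5 genes, of 5117 in the count table, that had 0 counts in all 3 control libraries. They were chosen by those values, so their difference between the groups is a description here and is given with no test. The libraries come from HMC3, an established human microglial line labelled as wild type, and fall into 2 groups: cells given CM that contains C1s, called C1s-CM (3 libraries), and cells given CM lacking it, called control CM (3 libraries with FLAG in their titles). C1s is a protease that cleaves complement components C4 and C2 at the start of the classical pathway. By its title, the study concerns immunosuppression and microglial metabolism in mesenchymal glioblastoma. The labels do not spell out CM, and do not give the cells that made it, its dose or the time of treatment. All 6 libraries are from 1 cell line, and nothing in the labels says that they came from separate cultures, so spreads and p-values cover library-to-library differences that could be purely technical.

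The 5 genes belong to 3 functional groups. CXCR4 and CCR2 are chemokine receptors, membrane proteins coupled to G proteins that steer migrating leukocytes along gradients of their ligands, CXCL12 for CXCR4 and CCL2 for CCR2. CD163 and CD209 are surface receptors of macrophages and dendritic cells, the first taking up complexes of haptoglobin and haemoglobin and the second binding mannose-rich and fucosylated glycans. IGF1 is a secreted growth factor that acts through the receptor tyrosine kinase IGF1R and is produced in brain by microglia among other cells.

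The DNA before the start site is shown for 4 of them because the 5 genes were chosen by a shared pattern of counts. The stretches are from RefSeq (GRCh38.p14), the most upstream start for a gene with several, read 5′ to 3′ on the gene's strand and kept only where no exon of the gene is annotated in GENCODE release 29. The 250 bases before the start of CCR2 (chr3:46353861-46354110, plus strand) lie within an annotated exon and are not printed. The 234 bases of CXCR4 are chr2:136118166-136118399, the 134 of CD163 chr12:7503894-7504027, the 220 of CD209 chr19:7747565-7747784 and the 250 of IGF1 chr12:102481748-102481997, all on the minus strand. Capitals mark matches to the motifs named next.
CXCR4: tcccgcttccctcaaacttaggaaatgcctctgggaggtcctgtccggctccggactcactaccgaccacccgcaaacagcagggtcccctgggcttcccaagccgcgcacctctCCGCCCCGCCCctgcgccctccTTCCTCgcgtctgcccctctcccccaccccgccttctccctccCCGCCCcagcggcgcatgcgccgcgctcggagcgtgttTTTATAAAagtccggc
CD163: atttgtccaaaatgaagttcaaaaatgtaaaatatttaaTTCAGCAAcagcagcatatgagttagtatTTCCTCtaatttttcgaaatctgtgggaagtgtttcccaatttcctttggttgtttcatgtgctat
CD209: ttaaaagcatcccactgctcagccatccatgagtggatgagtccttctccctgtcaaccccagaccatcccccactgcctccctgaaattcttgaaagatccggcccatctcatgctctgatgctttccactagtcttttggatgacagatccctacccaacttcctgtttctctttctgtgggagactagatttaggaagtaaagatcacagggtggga
IGF1: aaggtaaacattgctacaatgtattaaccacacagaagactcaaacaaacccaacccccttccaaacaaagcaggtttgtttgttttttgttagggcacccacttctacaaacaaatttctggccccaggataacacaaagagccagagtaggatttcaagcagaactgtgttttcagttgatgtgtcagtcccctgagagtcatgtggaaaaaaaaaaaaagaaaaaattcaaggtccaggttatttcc

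In the 250 bases before each start, 8 motifs were searched on both strands. Of these, none matched more than 2 of the 5 genes. CXCR4 had 3 matches to the Sp1 GC box GGGCGG, of which 2 overlap, and 2 overlapping matches to the TATA box TATAAA, the nearer one ending 25 bases before the start. The GC box was found in 42.6% and the TATA box in 10.7% of the 35116 promoter stretches of the same length. The ETS-type core GAGGAA matched in CXCR4 and CD163 (23.6% of all stretches), and the C/EBP motif TTGCNNAA in CCR2 and CD163 (9.05%). CCR2 also had the AP-1 motif TGANTCA (6.57%). CD209 and IGF1 had no match to any of the 8 as spelled here. Other spellings of these motifs were not searched, so a missing match is not a missing site. The STAT motif TTCNNNGAA (6.57% of all stretches) and the NF-kB-type core GGGANTTTC (1.12%) matched in none of the 5. Nor did the hypoxia response core in the only form searched, ACGTG (18.5%). GC content before the start was 68.0% for CXCR4, 49.6% for CD209, 39.6% for IGF1, 38.8% for CCR2 and 33.6% for CD163, against a median of 58.0% over all stretches. These matches are descriptions of sequence and say nothing of what binds there.

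CXCR4 had the highest counts of the 5. Its C1s-CM libraries held 433, 411 and 421 counts and its control libraries 0, 0 and 0. As CPM, which scales counts to the table total of each library, this was 30.4, 27.5 and 29.7, or 29.2 ± 1.54 (SD, n = 3). The groups were far apart, with no C1s-CM library under 411 counts. CCR2 had 213, 223 and 219 counts against 0 in each control library. This was 15.1 ± 0.285 CPM (SD, n = 3). Its 3 C1s-CM libraries were the most alike of any of the 5 genes.

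Of the receptors of macrophages and dendritic cells, CD163 had 322, 231 and 311 counts in C1s-CM, or 19.99 ± 3.96 CPM (SD, n = 3). Replicate 2 stood below the others, 15.4 CPM against 22.6 and 21.9, although that library had the largest table total. For CD209 the counts were 279, 269 and 266, which is 18.8 ± 0.816 CPM (SD, n = 3), and the libraries lay close together. All control libraries held 0 counts of both genes. IGF1, the secreted factor, had 211, 199 and 207 counts, or 14.2 ± 0.821 CPM (SD, n = 3), against 0 in every control library.

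**Figure D1:**
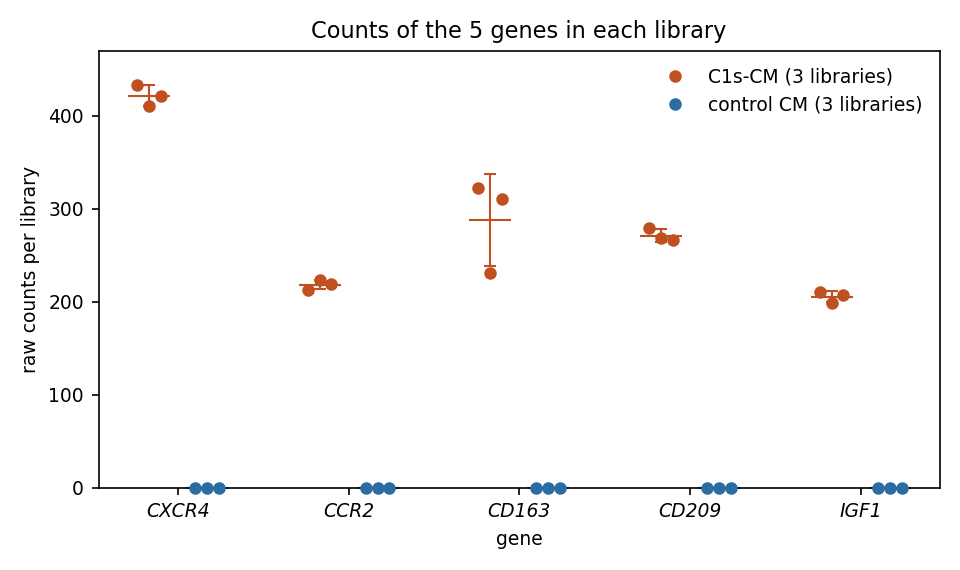
Raw counts (vertical axis) of CXCR4, CCR2, CD163, CD209 and IGF1 in each of 3 C1s-CM and 3 control CM libraries, points in replicate order, with the mean (bar) and SD (whiskers). All C1s-CM points lie between 199 and 433 counts, with CD163 of replicate 2 (231) set apart from its group, and all control points lie at 0.

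Since the controls were at 0, fold differences are lower bounds set against a floor of 3 counts in each control library, which is 0.236, 0.222 and 0.216 CPM. On that floor CXCR4 was at least 130.0-fold higher in C1s-CM, CD163 at least 89.0-fold, CD209 at least 83.6-fold, CCR2 at least 67.2-fold and IGF1 at least 63.4-fold higher. Floors cover counting error only, and PCR copies are not independent molecules. The bounds hold for that floor, and the C1s-CM mean enters them without its spread. In all 5 genes every C1s-CM library was above every control library, which held for 27.2% of the 5117 genes. The rule used this contrast, so nothing is read from that count.

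Summed over the 3 C1s-CM libraries, the counts were 1265 for CXCR4 (exact Poisson 95% interval 1196 to 1337), 864 for CD163 (807 to 924), 814 for CD209 (759 to 872), 655 for CCR2 (606 to 707) and 617 for IGF1 (569 to 668). These intervals cover counting error only. That of CD163 is too narrow, since the variance of its counts among the libraries was 8.57 times their mean. The 5 genes together made up 102, 89.1 and 100.3 CPM of the C1s-CM libraries. Their mean C1s-CM counts ran from 206 to 422. The other 5112 genes had a median control count of 872. That median is of the other group, and their C1s-CM median is not given here.

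Levels of different genes are compared per kilobase of exon, the union of all annotated exons, as CPM per kb (SD, n = 3). CXCR4 was highest at 13.1 ± 0.691, then CD209 at 4.25 ± 0.185, CCR2 at 4.05 ± 0.0763, CD163 at 3.44 ± 0.681 and IGF1 at 1.75 ± 0.101. CXCR4 lay above and IGF1 below the other genes in every library. The ranges of CD209 (4.07 to 4.44) and CCR2 (3.99 to 4.13) overlapped, and CCR2 and CD163 differed by less than the SD of CD163. Per kilobase of 1 representative transcript the middle of the order changed, with CCR2 at 6.33 ± 0.119, CD163 at 4.68 ± 0.928 and CD209 at 4.38 ± 0.191, and the ranges of the last 2 overlapped. CXCR4 (15.4 ± 0.811) and IGF1 (1.93 ± 0.112) kept their places.

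Among the C1s-CM libraries 4 of the 5 genes varied little. Counting alone would put the variance of the raw counts divided by their mean at 1 on average. With 3 libraries this ratio scatters widely for a single gene, and values well below 1 are common. It was 0.116 for CCR2, 0.171 for CD209, 0.182 for IGF1 and 0.288 for CXCR4. For CD163 it was 8.57. The 832 other genes whose mean C1s-CM count lay within that of the 5 had a median of 1.22, with quartiles of 0.474 and 2.35, and 43.6% of them were below 1. CCR2, CD209, IGF1 and CXCR4 were thus below the lower quartile, while 8 of the 832 genes (0.962%) were above CD163. The coefficient of variation of CPM was 1.89% for CCR2, 4.35% for CD209, 5.27% for CXCR4, 5.77% for IGF1 and 19.8% for CD163, beside a median of 6.11% for the 832 genes.

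**Figure D2:**
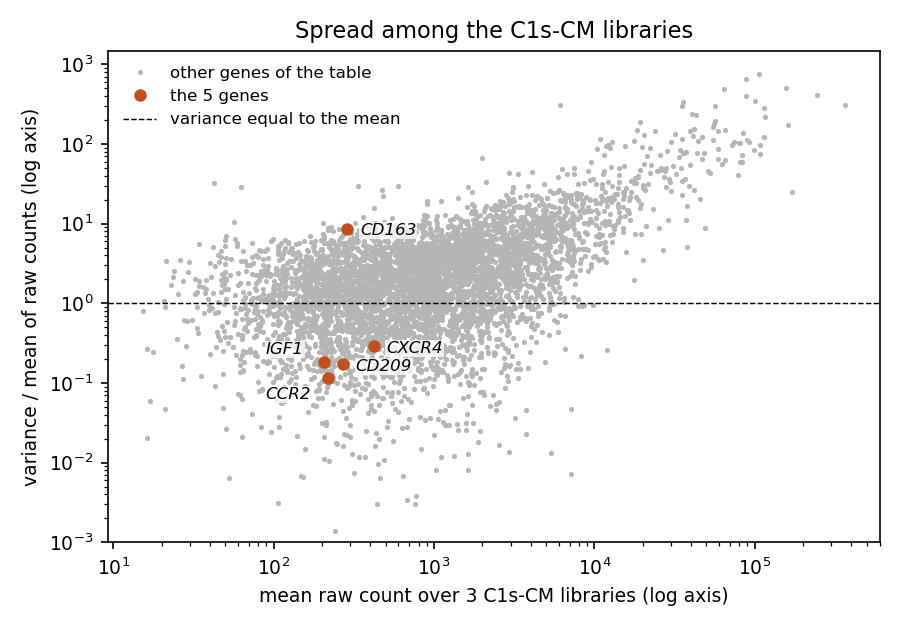
Variance over mean of raw counts among the 3 C1s-CM libraries (vertical log axis) against the mean count (horizontal log axis) for all genes of the table. CXCR4, CCR2, CD209 and IGF1 sit between 0.116 and 0.288, under the dashed line at 1, and CD163 at 8.57 near the upper edge of the genes at its count.

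Relative to CXCR4, the counts of IGF1, CD209 and CCR2 varied among the C1s-CM libraries by less than counting error, and that of CD163 by more. The raw count of IGF1 was 48.7%, 48.4% and 49.2% of that of CXCR4 in C1s-CM replicates 1, 2 and 3, an SD of 0.377 percentage points where counting error in a single library is 4.15. CD209 held 64.4%, 65.5% and 63.2% (SD 1.14, counting error 5.01), and CCR2 49.2%, 54.3% and 52.0% (SD 2.54, counting error 4.32). CD163 held 74.4%, 56.2% and 73.9%, an SD of 10.3 against a counting error of 5.21. These are ratios of counts, not of transcript levels. With 3 libraries no correlation between the genes is given.

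No other gene of the table had a 0 in any library. Just outside the rule stood RNY1, a small cytoplasmic RNA, with 7, 7 and 3 control counts, and BCYRN1, a short RNA derived from an Alu repeat, with 8, 6 and 10. Of 5112 other genes, 2 had under 10 counts in some library and 16 a control sum under 100. Of the 832 genes with C1s-CM counts like those of the 5, the lowest control mean was 152 counts, that of the pseudogene RPL18AP3, which had 191, 218 and 261 counts in C1s-CM and 137, 121 and 197 in the controls. The rule fixed the control counts of the 5, so nothing is read from this distance. The table holds genes that passed the authors' threshold, so a gene at 0 in both groups would have no row.

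**Figure D3:**
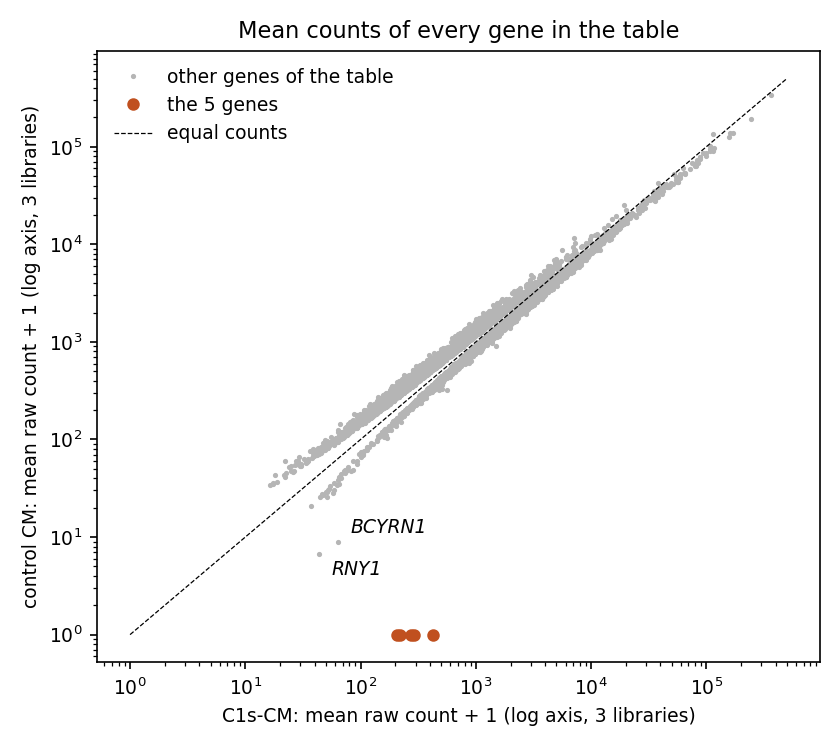
Mean raw count plus 1 in control CM (vertical log axis) against C1s-CM (horizontal log axis), 1 point per gene of the table, 3 libraries per mean. The 5 genes lie together at the bottom, at 0 control counts, away from the diagonal of equal counts, and BCYRN1 and RNY1 are the next lowest in the controls.

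Likeness to the 5 was measured by the share of a gene's CPM, summed over the 6 libraries, that came from control libraries, with at least 1 CPM on average. This share is 0% for the 5 and had a median of 50.8% over the other 5112 genes. The lowest were 12.1% for BCYRN1, 12.8% for RNY1, 33.9% for FP236383.5, 35.3% for LINC00337, 36.1% for UBBP4 and 36.5% for AC138932.1, which are noncoding RNAs and pseudogenes. BCYRN1 had 19, 65 and 104 counts in C1s-CM and RNY1 2, 50 and 75, so both varied far more among libraries than the 5 genes.

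The authors' deposited table gives fitted log2 fold changes of 11.21 for CXCR4, 10.66 for CD163, 10.58 for CD209, 10.26 for CCR2 and 10.18 for IGF1. Against libraries at 0 such values depend on the fit and are no bound. In the authors' deposited table the next largest log2 fold change was 3.02, that of BCYRN1. By p-value, the 5 ranked lower, from 247 of 5117 for CXCR4 to 364 for IGF1 in the authors' deposited table. The authors' deposited table gives CXCR4 an adjusted p of 1.49e-19 and IGF1 one of 4.43e-16.

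Other genes could add reads to some of these counts. On GENCODE release 29, CXCR4 spans chr2:136114349-136118165 (minus strand) and CCR2 chr3:46353734-46360928 (plus strand). CD163 spans chr12:7470813-7503893 and IGF1 chr12:102395874-102481744, and CD209 chr19:7739994-7747564, all on the minus strand and, like the receptors, protein-coding. CD163 overlaps CD163L1 on the same strand, and IGF1 overlaps the long noncoding RNAs HELLPAR and LINC02456 on the opposite strand. Use of strand in the counting is not given in the sources used here, so reads from these partners and from IGF1 cannot be told apart. Of the 50-base windows of the representative transcript, 2.99% for CD209 also occur in other genes, 89 of 123 such windows in its near copy CLEC4M. The share was 0.685% for CCR2, 0.192% for IGF1 and 0 for CXCR4 and CD163. Windows were compared in the sense direction only. Any overlap of IGF1 with HELLPAR and LINC02456, on the opposite strand, is therefore not in its share. CD163L1, HELLPAR, LINC02456 and CLEC4M have no row.

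Of the protein-coding genes within 250 kb, 10 of 29 had a row around CD209 and 1 of 2 around CXCR4. Around CCR2 it was 0 of 9, around CD163 0 of 6 and around IGF1 0 of 2. Together 11 of 48 protein-coding neighbours had a row, near the 25.2% of all protein-coding genes. These were DARS, the aspartyl-tRNA synthetase gene, 128 kb from CXCR4, and 10 genes near CD209, among them STXBP2, EVI5L and XAB2. Tests of these and the following genes used edgeR's quasi-likelihood test with TMM scaling and Benjamini-Hochberg adjustment over 5116 genes, of which 99.4% passed 0.05, 50.9% higher and 48.5% lower in C1s-CM. Because the table had already been selected by the authors' test on the same libraries, these calls are no independent evidence. The 10 genes near CD209 were 0.13 to 0.61 higher on the log2 scale (0.0077 to 0.49 with total counts alone, under which 5 of the 10 passed), and DARS was 0.21 ± 0.04 lower (SE, adjusted p = 3.17e-05, edgeR). Offsets that model GC content and length of the transcript were fitted as an alternative, under which 25.4% of 5112 genes passed (17.1% higher, 8.37% lower). With them 0 of the 10 passed in edgeR (0 at an unadjusted p under 0.05), and DARS turned to 0.14 higher, while total counts gave DARS -0.34. No neighbour of CCR2, CD163 or IGF1 had a row.

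Transcript GC content moved with direction over the whole table. Of 2585 other genes with a GC content under 50%, 6.00% were higher in C1s-CM, and of 2522 at or above 50%, 98.1%. CXCR4 (43.9%), CCR2 (43.9%), CD163 (46.0%) and IGF1 (36.7%) belong by GC content to the first class, in which most genes were lower, and CD209 (50.8%) to the second. The part of GC content in the values of the 5 was not tested. The offsets described above cannot test it, since counts of 0 stay 0 under them. Scaling by total counts alone moved the median log2 fold change of all genes from 0.08 to -0.05, and 75.3% of genes then passed, 26.1% higher and 49.2% lower. In the 29 genes named from the lists below it lowered each log2 fold change by 0.13. Their values are given with TMM and with the offsets. Values with total counts follow where these turned the direction, ended the call or moved the value by over 1.5 times. A gene is said to turn where its sign changed, also if the new value missed the threshold.

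Lists of genes around the 5 held 332 other genes, of which 80 had a row and 42 passed as higher and 37 as lower. A gene without a row did not pass the authors' threshold or was not among the genes they adjusted over, and its level is not known here. No listed gene with a row had 0 counts, and the lowest count in any library was 48. The log2 fold changes had a signed median of 0.10. Higher and lower genes offset each other in it, so it does not give the size of single differences. The widest was the -1.13 ± 0.16 of JAK2, a kinase that relays cytokine receptor signals, with 48, 64 and 82 counts in C1s-CM and 110, 162 and 159 in the controls (adjusted p = 1.11e-06, edgeR), named after its values were seen. With offsets JAK2 was -0.63.

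No chemokine receptor other than CXCR4 and CCR2 had a row, of 20 others listed. Among ligands of the pair, neither CXCL12 nor CCL2 had one, and 2 of 10 did, with 1 called higher and 1 lower. UBB, a gene of ubiquitin, which is an alternative CXCR4 ligand, was at 0.21 ± 0.03 on the log2 scale (SE), at 0.13 with offsets and at 0.08 with total counts. HMGB1, a chromatin protein that binds CXCL12 outside cells, was at -0.25 ± 0.03 and turned to 0.29 with offsets.

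Of 43 genes of chemokine receptor signalling and turnover, 25 had a row, 11 called higher and 14 lower, with a median log2 fold change of -0.25. The smallest p-values were those of GNG12, a G protein gamma subunit (-0.36 ± 0.03), GRK6, a kinase that phosphorylates active receptors (0.33 ± 0.03), ITCH, the ubiquitin ligase that sends CXCR4 to lysosomes (-0.39 ± 0.04), and GNB2, a G protein beta subunit (0.28 ± 0.03). Scaled to table totals, GNG12 had 195 CPM in C1s-CM and 274 in control CM, and total counts gave it -0.49. With offsets GNG12 turned to 0.16 and ITCH to 0.13, GRK6 was 0.10 and GNB2 0.01 (0.20 and 0.16 with total counts), and 6 genes of the list were called higher and 2 lower, with a median of 0.01. Total counts alone gave 7 higher and 14 lower.

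Around CD163, 12 of 29 genes of haem and iron handling, shedding and regulation had a row, 7 called higher and 5 lower. Ferritin light chain FTL was higher (0.30 ± 0.03, 0.12 with offsets and 0.18 with total counts), and the transferrin receptor TFRC was lower (-0.27 ± 0.03). ADAM10, a membrane protease of the family that sheds CD163 (-0.48 ± 0.04), and the glucocorticoid receptor NR3C1 (-0.48 ± 0.06), an inducer of CD163 in monocytes, were lower too. With offsets TFRC (0.15), ADAM10 (0.10) and NR3C1 (0.01) turned, and 4 genes were called higher and 0 lower in edgeR (5 and 0 at an unadjusted p under 0.05). Total counts alone gave 3 higher and 5 lower. HMOX1, the enzyme that degrades haem, had no row.

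Of 27 genes around CD209 and the C-type lectins, 2 had a row, and both were called higher. They were LGALS1, a galectin (0.40 ± 0.03 and, with offsets, 0.18), and CLEC11A, a secreted growth factor with a lectin-like domain (0.39 ± 0.09 and, with offsets, 0.07). No other gene of that list had one.

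The IGF axis had 18 of 49 genes with a row, 10 called higher and 8 lower, with a median of 0.09. Neither the receptor IGF1R nor the adaptors IRS1 and IRS2 had a row. Downstream, the kinase AKT2 was higher (0.26 ± 0.03). EIF4EBP1, a translation repressor controlled by mTOR, was higher (0.29 ± 0.03), and SOS1, an activator of Ras, was lower (-0.60 ± 0.07). With offsets AKT2 was 0.10, SOS1 -0.02 and EIF4EBP1 -0.04, and with total counts AKT2 was 0.13 and EIF4EBP1 0.16. With offsets 2 genes of the list were called higher and 3 lower. Total counts alone gave 4 higher and 8 lower.

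Transcription factors of myeloid and cytokine-induced genes had 13 of 47 genes with a row, 6 called higher and 7 lower (median -0.18). HIF1A, which mediates the response to low oxygen, was at -0.61 ± 0.04 with TMM. Its CPM, scaled to table totals, was 155 in control CM and 92.6 in C1s-CM, and total counts gave -0.74. SP3 was at -0.52 ± 0.05 and NR1H2, a liver X receptor, at 0.23 ± 0.04. HIF1A stayed lower with offsets (-0.15), whereas SP3 (0.0045) and NR1H2 (-0.03) turned, and 0 genes were called higher and 2 lower in edgeR (0 and 3 at an unadjusted p under 0.05). Total counts alone gave 3 higher and 7 lower, with NR1H2 at 0.10. SPI1, the PU.1 factor of myeloid cells, had no row.

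**Figure D4:**
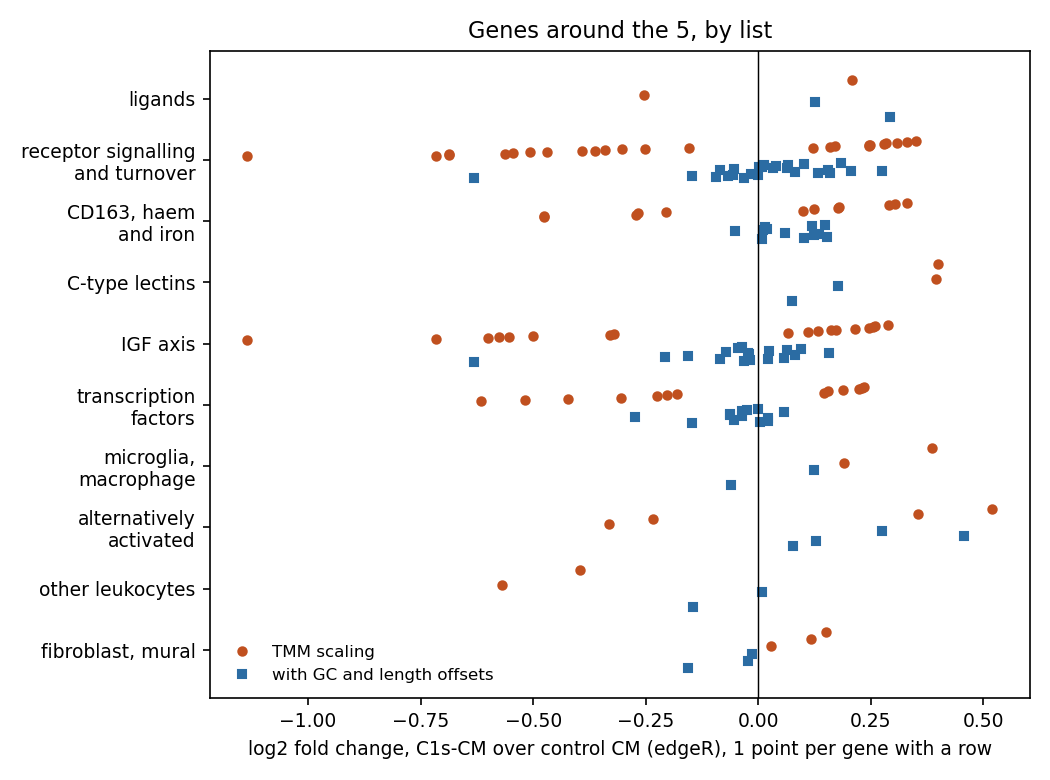
Log2 fold change of C1s-CM over control CM (horizontal axis, edgeR) for each gene with a row, by list, with TMM scaling (circles) and with GC and length offsets (squares). With TMM scaling JAK2 at -1.13 is the lowest gene and TGFB1 at 0.52 the highest, and with offsets JAK2 is at -0.63 and TGFB1 at 0.28.

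Markers of microglia and macrophages were mostly without a row, so the label of the cells could not be checked against them. Of 31, 2 had one: CORO1A, an actin regulator of leukocytes (0.39 ± 0.11), and GAS6, a ligand of the receptor MERTK (0.19 ± 0.06). Their summed level was 60.5 to 67.9 CPM in C1s-CM and 58.2 to 60.6 in the controls, and with total counts GAS6 missed the threshold (0.07). With offsets 0 of the 2 passed in edgeR (0 at an unadjusted p under 0.05), with CORO1A at 0.12, and GAS6 turned to -0.06. CSF1R, P2RY12, TMEM119, AIF1 and PTPRC had no row. Of 28 markers of alternatively activated macrophages, a state in which CD163 and CD209 are used as markers, 4 had a row. TGFB1, a suppressive cytokine (0.52 ± 0.03), and FN1, fibronectin (0.36 ± 0.03), were higher. CD274, the ligand of PD-1 (-0.33 ± 0.06), and IL13RA1, an interleukin receptor subunit (-0.23 ± 0.06), were lower and turned with offsets to 0.08 and 0.13. With offsets TGFB1 was 0.28 and FN1 0.46, with total counts FN1 was 0.23 and IL13RA1 -0.36, and MRC1, MSR1 and VSIG4 had no row.

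Markers of other cells gave few values. Of 30 for other leukocytes, VCAN, a matrix proteoglycan (-0.40 ± 0.04), and IL7R (-0.57 ± 0.13) had a row and were lower, summing to 106 to 109 CPM in C1s-CM and 148 to 162 in the controls. With offsets VCAN was 0.0087 and IL7R -0.15. None of 24 markers of glioma, neural and other brain cells had a row. Of 12 for fibroblasts and mural cells, THY1 (0.15 ± 0.03) and PDGFRB (0.12 ± 0.03) were called higher and COL1A1 (0.03 ± 0.03) was not. Summed, these 3 were at 4803 to 4933 CPM in C1s-CM and 5046 to 5109 in the controls, most of it from COL1A1 (3651 and 3907 CPM). That is far above the sums of the microglial and leukocyte markers with a row, and markers without a row add nothing to any of these sums. With total counts THY1 (0.03) missed the threshold and PDGFRB turned to -0.01, and with offsets both turned, to -0.01 and -0.02. COL1A1 passed as lower with total counts (-0.10) and with offsets (-0.16). The part of other cells in the counts of CXCR4, CCR2, CD163, CD209 and IGF1 was not tested, and in bulk RNA more cells of a type and more RNA per cell cannot be told apart.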

How the data were processed

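The submitters' processing notes name HISAT2 2.2.1, Trim Galore 0.6.7, FastQC 0.11.9 and DESeq2 1.40.2, with GRCh38 as the build. The counting tool, its annotation and its strand setting are not stated there. The authors deposited raw counts per gene. Per the file headers, the table also holds their p-value, adjusted p-value and log2 fold change. The largest adjusted p-value deposited is 0.05, so the table holds the genes the authors called, and its totals (12730766 to 14961744) are not library depths. CPM divides by these totals. Here counts were tested with edgeR 4.0.16 in R 4.3.3 (two-sided quasi-likelihood test, filterByExpr, TMM, no term besides group). SEs are the log2 fold change over the square root of F. The offsets are a loess fit (span 0.3) per library. DESeq2 1.42.0 served as an alternative. Only the edgeR fit with TMM was tested on simulated data, in which most genes were unchanged, unlike in this table. The offsets, DESeq2 and the other steps were not. Gene models, held for 5113 of 5117 genes, are GENCODE release 29 and promoters RefSeq. The 5 genes and the lists were chosen with earlier results of these data known. Some genes are not reported here and were left out of the lists, with no replacement among the named. Named are the 5, up to 4 genes per list with the smallest p, the 6 most alike by control share and neighbours within 250 kb.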

Additional observations from a re-analysis of the deposited data

How the results depend on the processing

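The counts of the 5 genes are the same under every setting, and the lower bounds of their folds change with the scaling. In the order CXCR4, CCR2, CD209 and IGF1 the bounds were 142, 73.3, 91.2 and 69.1 with TMM library sizes, 140.3, 72.6, 90.3 and 68.4 with DESeq2 size factors, and 140.6, 72.8, 90.4 and 68.6 with raw counts. Those of CD163 moved by less than its SD. Leaving out each library in turn gave 127 to 134 for CXCR4, 66.04 to 68.9 for CCR2, 83.1 to 99.2 for CD163, 81.7 to 85.7 for CD209 and 62.1 to 65.5 for IGF1, and 4996 to 5051 genes past the threshold. The coefficients of variation stayed within 1.5 times with TMM. In edgeR 5086 genes passed the threshold, 2605 higher and 2481 lower, and with GC and length offsets 1301, 873 higher and 428 lower. Total counts alone gave 3853, 1336 higher and 2517 lower.

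Replicate numbers are shared by the groups, and same-numbered libraries did not deviate together (correlations of -0.14, -0.08 and -0.04). The fit with a replicate block gave 5054 genes past the threshold and changed no call among the 29 genes named from the lists.

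Among those 29 genes, 16 turned with the offsets: HMGB1 (0.29), GNG12 (0.16), ITCH (0.13), ADAM10 (0.10), TFRC (0.15), NR3C1 (0.0087), EIF4EBP1 (-0.035), SP3 (0.0045), NR1H2 (-0.025), GAS6 (-0.060), CD274 (0.077), IL13RA1 (0.13), VCAN (0.0087), THY1 (-0.014), PDGFRB (-0.023) and COL1A1 (-0.16). Of the 16, HMGB1, GNG12, ITCH and TFRC passed the threshold as higher with the offsets and COL1A1 as lower. The others of the 16 missed it, so their new direction is not called. A further 5 missed the threshold without turning and 8 kept direction and threshold. With total counts PDGFRB (-0.0090) and COL1A1 (-0.10) turned. Leaving out each library in turn changed no call among the 29 genes. The cause was not tested. The 3 libraries per group limit every spread given here. For a control count of 0 the floor of 3 counts in each library is a set value, not a maximum.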
